A study of Rattus norvegicus with 54 samples.

Results

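Mitochondrial ribosomal proteins are the protein subunits of the ribosome that works inside mitochondria. They were taken as every gene symbol of the deposited count tables that begins with Mrpl or Mrps, the prefixes for the large and the small subunit, followed by a number. The rule found 77 of 40319 listed genes, of which 46 were large subunit symbols and 31 were small subunit symbols. The symbols mrpl9, mrpl11 and mrpl24 are listed in lower case and were outside the rule. Mitochondrial ribosomal proteins are encoded in the nucleus, translated in the cytosol and imported. The assembled mitoribosome translates the few respiratory chain proteins that mitochondrial DNA encodes. The large subunit joins amino acids and the small subunit reads the messenger RNA. Cardiomyocytes are packed with mitochondria and draw most of their energy from the respiratory chain.

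Left ventricular tissue of female athymic rats (F344/NJcl-rnu/rnu, 8 weeks old) was collected 1 week after surgery. Sham hearts came from rats given a sham operation and not from the MI-operated rats. MI hearts had a permanent ligation of the proximal left anterior descending coronary artery and no treatment. Cell sheet hearts had the same ligation. A bi-level sheet of smooth muscle cells and endothelial progenitor cells was then laid on their epicardium over the ischemic area. Each heart gave 1 poly(A) RNA library from the infarct zone, 1 from the border zone and 1 from the remote zone. This makes 54 libraries in 9 groups of 6, taken as 18 animals. The athymic host lacks mature T cells, and the sheet was of human origin. The reads were aligned to the rat genome and counted on rat genes only. The paper describes no step that removes human reads, so any that aligned to rat genes are in the counts. Transcripts of the transplanted cells were not analysed separately. The libraries are numbered as technical replicates in the labels. The paper's methods describe 6 hearts of each treatment saved for sequencing, while its results allow for fewer animals in some groups. Each number within a treatment was taken here as 1 animal, and p-values measure the spread between these libraries. The libraries are of whole tissue, in which fewer cells of a type and less RNA per cell cannot be told apart.

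The libraries held 12699204 to 23397754 counts on genes, and the members took 0.163% to 0.584% of them. Sham replicate 5 stood apart. It had the lowest value of its group of 6 for 72, 71 and 66 of 73 tested members in the infarct, border and remote zones, and its macrophage marker score (the mean over 8 genes of log2 CPM, the count scaled to a common library size) was 8.69, 8.69 and 8.27 in these zones, against at most 6.05 in any other sham library. Cell sheet replicate 1 was the lowest of its group for 43, 65 and 70 members, and its cardiomyocyte marker score in the border zone was 4.60 against 9.95 to 11.6 in the other 5 animals. Results that move without one of these libraries are given with and without it. Counts of members with fully separated groups are the exception and used every library.

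Of the 77 members, 73 had enough counts to be tested in all 9 comparisons within a zone, 44 of the large and 29 of the small subunit. Mrpl28 and Mrpl53 were at 0 counts in all 54 libraries. The pseudogene Mrps17-ps1 never exceeded 9 counts and the Mrps21-like gene Mrps21l never exceeded 5 counts in a library, and none of these 4 was tested. In the RefSeq annotation of GRCr8, 20 members overlap another gene, among them Mrpl43 with Twnk, Mrpl47 with Actl6a and Ndufb5, Mrpl16 with Stx3 and Mrps12 with LOC103689966, and 23 members have at least 1 pseudogene symbol. How reads shared between such genes were counted is not given in the sources used here, so their levels carry this uncertainty.

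Genes for mitochondrial proteins are known to use promoters with sites for NRF1, for ETS family factors such as GABPA and for YY1. A promoter of 300 bases (250 before the start and 50 from it) was found in RefSeq for 61 of the 77 members. Searched on both strands, the ETS core CCGGAAG occurred in 20 of the 61 (32.8%) against 8.75% of 33469 rat promoters of the same length. The YY1 core AAGATGGC occurred in 15 (24.6%) against 3.17%, and the NRF1 core (GCGCA, any base, GCGC) in 8 (13.1%) against 4.25%. At least 1 of the 3 was present in 32 (52.5%) against 14.6%, and no match of one motif overlapped a match of another in the members. A match is a run of letters and not evidence of binding. The promoters of the 3 paralogues of bacterial S18, of Mrps26 and of Mrpl3 are printed because their genes gave the contrasting patterns described further on. They are RefSeq sequences of GRCr8, 5′ to 3′ in the direction of transcription, and capitals mark the motif matches.
Mrps18a (chr9:22367331-22367630, minus strand): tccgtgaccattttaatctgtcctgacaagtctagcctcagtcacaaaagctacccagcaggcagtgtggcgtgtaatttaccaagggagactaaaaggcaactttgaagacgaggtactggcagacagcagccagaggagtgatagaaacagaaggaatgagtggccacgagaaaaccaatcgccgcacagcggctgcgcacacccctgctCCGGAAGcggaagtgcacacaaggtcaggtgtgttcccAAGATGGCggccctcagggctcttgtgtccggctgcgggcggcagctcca
Mrps18b (chr20:2842756-2843055, plus strand): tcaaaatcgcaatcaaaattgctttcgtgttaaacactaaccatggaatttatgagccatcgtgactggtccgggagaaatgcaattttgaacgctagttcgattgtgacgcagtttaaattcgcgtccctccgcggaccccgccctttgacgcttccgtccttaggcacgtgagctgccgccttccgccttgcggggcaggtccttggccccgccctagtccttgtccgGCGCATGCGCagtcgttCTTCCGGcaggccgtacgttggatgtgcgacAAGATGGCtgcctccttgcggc
Mrps18c (chr14:9122857-9123156, minus strand): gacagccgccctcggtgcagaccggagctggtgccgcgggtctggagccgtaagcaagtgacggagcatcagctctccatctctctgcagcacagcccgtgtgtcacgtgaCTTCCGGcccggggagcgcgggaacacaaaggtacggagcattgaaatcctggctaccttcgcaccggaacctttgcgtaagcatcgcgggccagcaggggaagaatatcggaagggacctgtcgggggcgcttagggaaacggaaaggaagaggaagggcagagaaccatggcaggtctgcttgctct
Mrps26 (chr3:138222074-138222373, plus strand): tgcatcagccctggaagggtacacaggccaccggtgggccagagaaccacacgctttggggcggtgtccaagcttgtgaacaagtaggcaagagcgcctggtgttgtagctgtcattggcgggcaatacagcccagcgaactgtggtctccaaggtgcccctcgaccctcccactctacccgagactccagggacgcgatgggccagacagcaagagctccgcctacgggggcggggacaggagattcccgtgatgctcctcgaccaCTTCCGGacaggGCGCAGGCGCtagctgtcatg
Mrpl3 (chr8:114548720-114549019, plus strand): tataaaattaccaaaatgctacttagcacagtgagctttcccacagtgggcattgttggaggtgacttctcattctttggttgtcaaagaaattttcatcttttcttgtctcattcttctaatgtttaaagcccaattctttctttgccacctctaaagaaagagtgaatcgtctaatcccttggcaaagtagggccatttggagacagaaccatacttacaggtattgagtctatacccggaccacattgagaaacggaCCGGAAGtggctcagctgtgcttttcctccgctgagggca
With the first base of the gene as position 1 and the base before it as −1, Mrps18a held an ETS match from −38 and a YY1 match from 1. Mrps18b held all 3 motifs, with NRF1 from −20, ETS on the opposite strand from −3 and YY1 from 29. Mrps18c held only an ETS match, on the opposite strand from −139. Mrps26 held an ETS match on the opposite strand from 18 and an NRF1 match from 30, and Mrpl3 an ETS match from 11.

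The members as a group were lower after MI in the infarct and border zones, and lower again with the cell sheet in the border zone. Their mean log2 CPM in the infarct zone was 5.45, 6.15 and 6.31 (lowest, median and highest of 6) in sham, 4.48, 4.83 and 5.76 in MI and 4.20, 4.37 and 5.36 with the cell sheet. The border zone values were 5.40, 6.05 and 6.19 in sham, 4.68, 5.29 and 5.55 in MI and 4.06, 4.69 and 5.05 with the cell sheet. The remote zone values were 5.25, 5.83 and 5.91 in sham, 5.44, 5.61 and 5.70 in MI and 4.92, 5.70 and 6.01 with the cell sheet. The sham libraries other than replicate 5 lay above all MI libraries in each zone, whereas replicate 5 lay among the MI libraries in the infarct and border zones and below them in the remote zone. The group medians of single members were in the order sham, MI, cell sheet for 73 of 73 members in infarct tissue and for 70 of 73 in border tissue. The members share their libraries, so they are not independent, and the order was not counted over all genes. In infarct tissue the cell sheet and MI libraries overlapped, and no member passed the test between them that is described below. In the remote zone the order was mixed, and the commonest, with the MI median lowest and the sham median highest, held for 38 of 73.

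**Figure D1:**
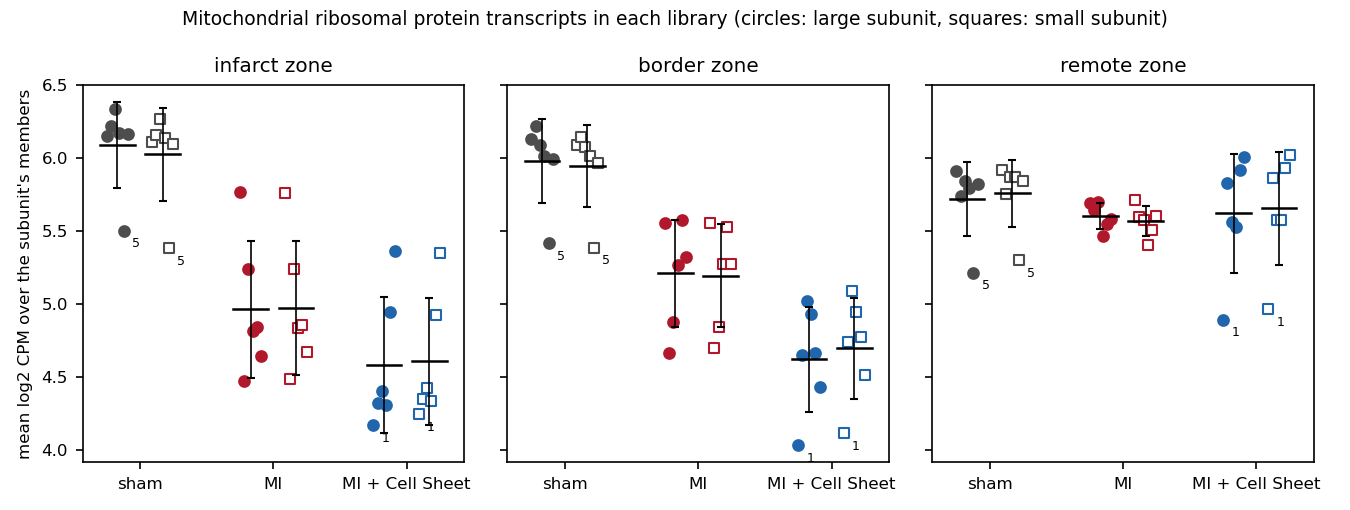
Mean log2 CPM of the large subunit members (44) and of the small subunit members (29) in each library, by zone and treatment. In the infarct and border zones the group medians of both subunits are highest in sham and lowest with the cell sheet, the MI and cell sheet libraries overlap, and in the remote zone all groups overlap.

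In the infarct zone, 71 of 73 members fell in MI relative to sham and none rose, 43 of 44 large subunit and 28 of 29 small subunit members (edgeR's quasi-likelihood test, adjusted p under 0.05). Of all 15758 genes tested in this comparison, 27.2% fell and 22.7% rose. The median log2 fold change of the members was −1.06, against −0.02 over all genes. The largest fall was that of Mrpl42, a subunit with no bacterial counterpart. Its level was 70.8, 136 and 166 CPM in sham and 23.0, 31.2 and 68.6 CPM in MI, so the groups did not overlap, and its log2 fold change was −1.80 (SE 0.28, adjusted p = 0.000576). Mrpl47, the counterpart of bacterial L29 beside the exit tunnel, had 40.7, 65.6 and 75.8 CPM in sham and 8.52, 16.1 and 32.6 CPM in MI, also without overlap, with a log2 fold change of −1.67 (SE 0.30, adjusted p = 0.0013). Mrps36 carries a small subunit symbol but is now known as a part of the 2-oxoglutarate dehydrogenase complex. It went from 105, 253 and 283 CPM in sham to 18.8, 47.3 and 172 CPM in MI, with a log2 fold change of −1.78 (SE 0.48, adjusted p = 0.00978), and its groups overlapped. All 6 MI libraries lay below all 6 sham libraries for 6 of 73 members, beside 5.39% of all genes. Sham replicate 5 was the lowest sham library for 72 of 73 members in this zone, and separation was not counted without it.

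The fall in the infarct zone took in each of the listed regions of the mitoribosome. The stalk proteins that recruit translation factors were Mrpl10, with a log2 fold change of −0.51, and Mrpl12, with −1.28 (SE 0.36, adjusted p = 0.0114). Mrpl12, which is also known to bind the mitochondrial RNA polymerase, was at 175, 345 and 377 CPM in sham and 62.0, 102 and 301 CPM in MI, where replicate 1 held the value of 301. All 5 listed proteins of the core around the catalytic centre fell, with a median of −1.27, and among them Mrpl3, the counterpart of bacterial L3, went from 92.2, 182 and 196 CPM in sham to 47.5, 55.9 and 120 CPM in MI (−1.27, SE 0.26, adjusted p = 0.00264). All 3 listed exit tunnel and membrane-side proteins fell (median −1.0), including Mrpl45, which ties the ribosome to the inner membrane (−1.29, SE 0.29, adjusted p = 0.0045). All 5 of the central protuberance (median −1.09), all 5 of the small subunit head (median −1.20) and all 6 of the small subunit body and decoding region (median −0.82) fell. Mrpl58, which releases peptides from stalled ribosomes, fell by 1.04 on the log2 scale (SE 0.28, adjusted p = 0.00913).

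The members that did not pass the test in the infarct zone were Mrpl43 and Mrps26, both without a bacterial counterpart and both named here after their values were seen. Mrps26 had 39.4, 53.6 and 56.9 CPM in sham and 37.9, 45.4 and 56.3 CPM in MI, a log2 fold change of −0.20 (SE 0.11, adjusted p = 0.169). Mrpl43 had −0.30 (SE 0.15, adjusted p = 0.11). By origin, 43 of 43 members with a bacterial counterpart fell (median −1.09) and 27 of 29 members found only in mitochondrial ribosomes fell (median −1.06).

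Of the border zone members, 68 of 73 fell in MI relative to sham and none rose, beside 23.2% of all 15641 genes that fell and 18.4% that rose. The median log2 fold change was −0.78, with 41 of 44 large and 27 of 29 small subunit members called. Mrpl38, a protein of the central protuberance, had 31.6, 58.3 and 71.1 CPM in sham and 14, 25.1 and 28.5 CPM in MI, so that no MI library reached the sham range (−1.32, SE 0.22, adjusted p = 0.00157). Mrps36 (−1.39) and Mrpl40 of the central protuberance (−1.18) were the others among the 3 largest falls. For 5 of 73 members all MI libraries lay below all sham libraries, beside 4.51% of all genes. Sham replicate 5 was the lowest sham library for 71 of 73 members here, and separation was not counted without it. Mrps26 (−0.06, SE 0.10, adjusted p = 0.63) and Mrpl43 (−0.04, SE 0.14, adjusted p = 0.83) again did not pass.

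**Figure D2:**
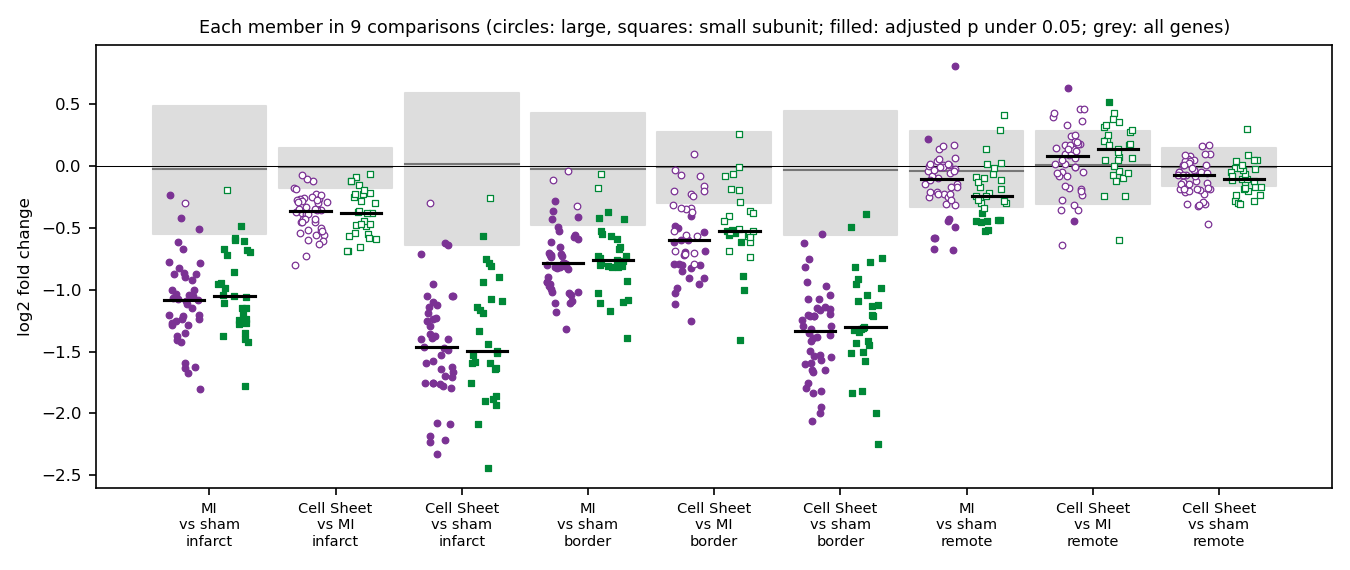
Log2 fold change of each of the 73 tested members in the 9 comparisons within a zone, with large and small subunit members apart and a line at their medians. The members lie below 0 almost throughout in the comparisons with sham of the infarct and border zones and on both sides of 0 in the remote zone.

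Markers of other cells moved with these falls. In MI relative to sham, 11 of 12 cardiomyocyte markers fell in infarct tissue (median −1.85) and 11 of 12 in border tissue (median −1.55). Of 8 fibroblast markers, 7 rose in infarct and 8 in border tissue, and of 8 macrophage markers 3 and 4 rose. The range of the cardiomyocyte score was 11.1 to 12.6 in sham and 8.40 to 11.7 in MI for infarct tissue, and 10.9 to 12.6 and 8.82 to 11.4 in the border zone. Without sham replicate 5, all 8 macrophage markers rose in each of both zones (medians 2.04 and 2.09), as did all 5 proliferation markers and 4 and 5 of 5 neutrophil markers. The part of these cells in the members' falls was not tested. Without that library 72 members fell in infarct tissue, beside 30.7% of all genes that fell and 34.1% that rose, and 68 in border tissue, beside 28.9% and 31.9%.

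The comparison of cell sheet with untreated MI hearts in the border zone gave falls of 32 of 73 members and no rise, while 9.48% of all 16272 genes fell and 8.47% rose. The median log2 fold change was −0.55. Of the large subunit, 23 of 44 members fell (median −0.60), and of the small subunit, 9 of 29 (median −0.53). All 6 cell sheet libraries lay below all 6 MI libraries for 11 members, 6 large and 5 small, beside 5.69% of all genes. By role, neither of the 2 stalk proteins and none of the 6 listed proteins of the small subunit body passed the test, and 2 of 3 exit tunnel, 2 of 5 central protuberance, 1 of 5 core and 1 of 5 small subunit head proteins fell. By origin, 19 of 43 members with a bacterial counterpart (median −0.56) and 13 of 29 without one (median −0.53) fell.

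The 3 paralogues of bacterial S18, which occupy different places in the mitoribosome, gave different values in this comparison. Mrps18c, the copy at the bacterial position in the small subunit, had 46.4, 62.0 and 104 CPM in sham, 23.3, 39.5 and 55.4 CPM in MI and 9.85, 13.8 and 18.7 CPM with the cell sheet. No cell sheet library reached the MI range, and the log2 fold change of −1.40 (SE 0.21, adjusted p = 0.0012) was the largest fall among the members. Mrps18b, at another place in the small subunit, had 45.7, 82.7 and 88.8 CPM in sham, 20.7, 34.5 and 46.6 CPM in MI and 16.2, 37.5 and 48.0 CPM with the cell sheet. Its cell sheet and MI libraries overlapped almost fully (−0.01, SE 0.26, adjusted p = 0.984), while its MI libraries were below most sham libraries (−1.18, adjusted p = 0.00218). Mrps18a, which sits in the large subunit despite its symbol, had 38.1, 49.4 and 54.5 CPM in sham, 26.4, 33.3 and 44.3 CPM in MI and 21.7, 29.4 and 37.0 CPM with the cell sheet, and passed in MI against sham (−0.53, adjusted p = 0.00975) but not with the cell sheet against MI (−0.19, SE 0.14, adjusted p = 0.392). The difference in fold change between the paralogues was not tested. The promoters printed for them held an ETS match in each, and YY1 matches in Mrps18a and Mrps18b but not Mrps18c.

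Further falls with the cell sheet in the border zone were spread over the large subunit. Mrpl33, a small protein of the large subunit known from bacterial L33, had 3.38, 5.09 and 7.29 CPM in sham, 2.87, 3.86 and 6.41 CPM in MI and 1.21, 1.51 and 2.88 CPM with the cell sheet (−1.25, SE 0.26, adjusted p = 0.00677). Mrpl1, of the L1 stalk where spent tRNA leaves, had 21.3, 37.1 and 50.1 CPM in MI and 10.6, 16.9 and 21.6 CPM with the cell sheet (−1.11, SE 0.25, adjusted p = 0.00942). Mrpl42 had 59.0, 109 and 115 CPM in sham, 27.5, 53.4 and 64.7 CPM in MI and 15.1, 24 and 34.1 CPM with the cell sheet (−0.99, SE 0.22, adjusted p = 0.0102). In these 3 the highest cell sheet library lay above the lowest MI library, and the other libraries of Mrpl33 and Mrpl1 were apart. Mrpl43, which had not passed in MI against sham, had 8.68, 10.6 and 13.3 CPM in MI and 5.36, 6.39 and 8.30 CPM with the cell sheet, without overlap (−0.68, SE 0.14, adjusted p = 0.0067). Mrpl22 at the exit tunnel had −0.82. Mrpl58 had −0.80 (SE 0.22, adjusted p = 0.0251), a call that was lost in 5 of the 12 fits that left out 1 library.

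**Figure D3:**
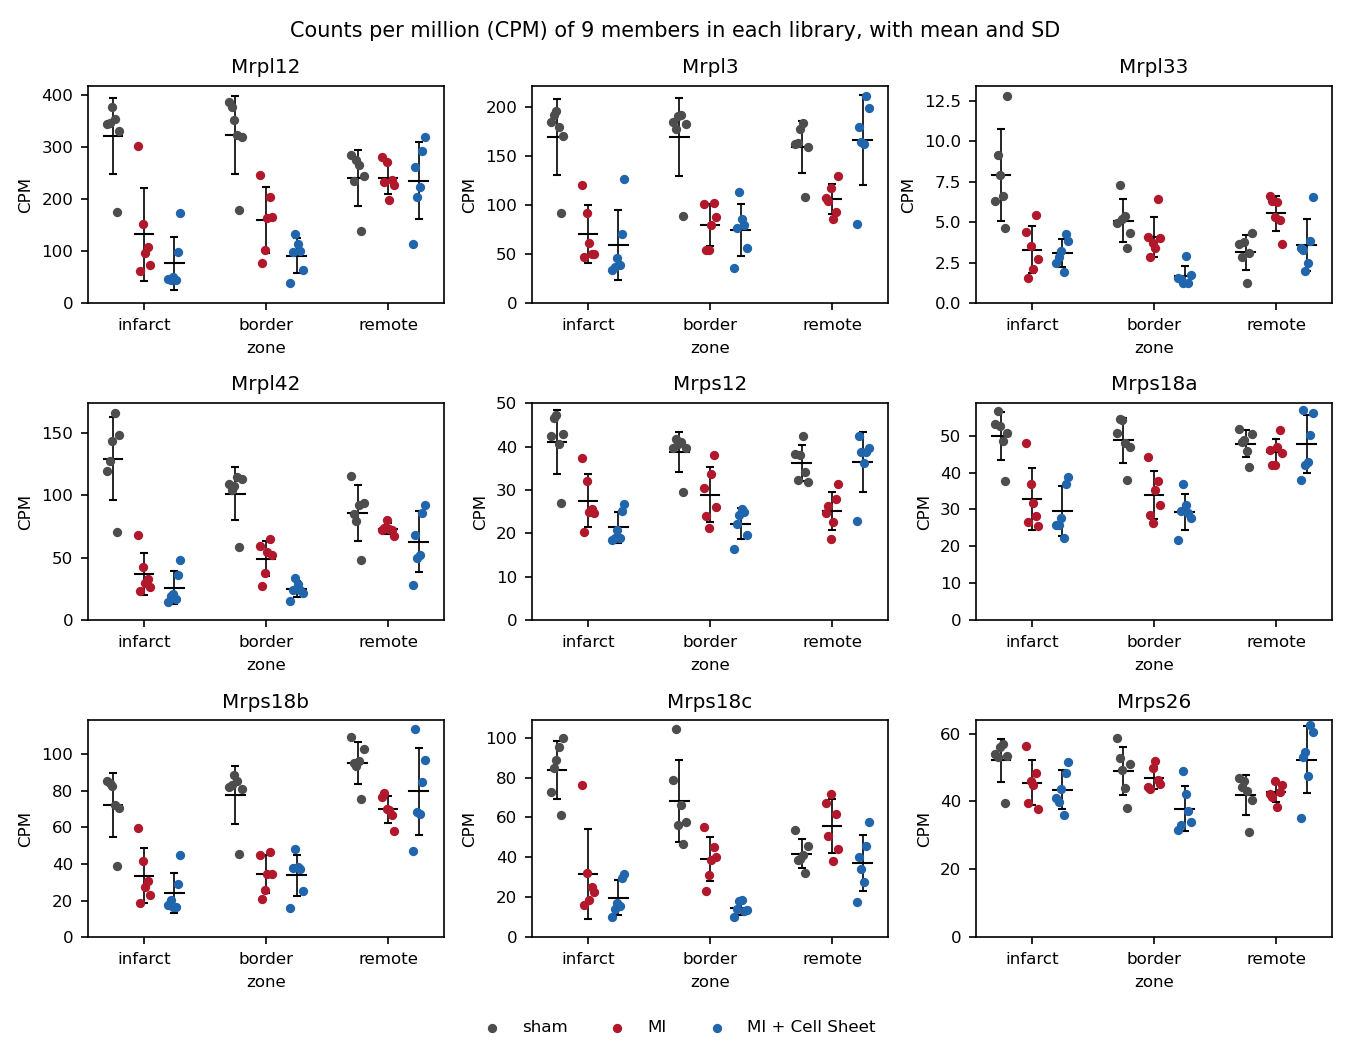
CPM of 9 members in each library by zone and treatment, with the group mean and SD. Cell sheet libraries of Mrps18c in the border zone lie below the MI libraries, those of Mrps18b overlap them, and those of Mrps26 overlap both other groups.

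The cardiomyocyte markers gave no call in this comparison, as none of the 12 passed the test, and their median was +0.50, or +0.76 without cell sheet replicate 1. Their score ranged from 8.82 to 11.4 in MI and from 4.60 to 11.6 with the cell sheet. Of 6 tested adipocyte markers 3 rose, with a score of −0.32 to 3.64 in MI and −0.31 to 6.83 with the cell sheet. The summed CPM of the macrophage markers had medians of 6522 in MI and 2799 with the cell sheet. That of the fibroblast markers had 27405 and 42318, and both ranges overlapped. Without cell sheet replicate 1, 1 of 8 macrophage (median −0.32) and 1 of 5 proliferation markers (−0.68) fell. None of 8 fibroblast (+0.18) or 5 neutrophil markers (−1.85) passed, and 1 of 6 endothelial markers rose. The part of these markers in the members' falls was not tested. Without cell sheet replicate 1, 29 members fell, with a median of −0.46, beside 9.91% of all genes that fell and 8.86% that rose.

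In the infarct zone the members gave no call between cell sheet and MI hearts. None of the 73 members passed edgeR's test, as was so for 0 of 16196 genes (0%), and 6 members and 1341 genes had an unadjusted p under 0.05. DESeq2 called none of the members and 55 of 28377 genes. The median log2 fold change of the members was −0.37, with −0.37 for the large and −0.38 for the small subunit. It ranged from −0.56 (without cell sheet replicate 6) to −0.15 (without MI replicate 1) when 1 library was left out, and the lowest adjusted p of a member was 0.473. Relative to sham, 71 of 73 members fell with the cell sheet in this zone, beside 29.2% of all genes that fell and 28.6% that rose, with a median of −1.47. Here all 6 cell sheet libraries lay below all 6 sham libraries for 45 members, beside 9.06% of all genes. Mrps36 (−2.44), Mrpl42 (−2.33) and Mrpl16 of the core (−2.23) had the largest falls. All 73 tested border zone members fell in the cell sheet group relative to sham, beside 23.2% of all genes that fell and 20.4% that rose, with a median of −1.31. All libraries were separated for 60 members, beside 10.2% of all genes, and Mrps18c (−2.25, SE 0.22, adjusted p = 2.07e-05), Mrpl42 (−2.06) and Mrps36 (−2.0) had the largest falls. Mrps26 also passed in this comparison (−0.39, SE 0.13, adjusted p = 0.0324). These comparisons share the sham libraries with those of MI against sham and the cell sheet libraries with those of cell sheet against MI.

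In the remote zone, away from the infarct, 15 of 73 members fell and 2 rose in MI relative to sham, which is 20.5% and 2.74% of the members, beside 14.2% of all 15294 genes that fell and 11.7% that rose. The falls were of 7 large subunit members (Mrpl2, Mrpl3, Mrpl4, Mrpl38, Mrpl40, Mrpl44 and Mrpl51) and 8 small subunit members (Mrps2, Mrps5, Mrps9, Mrps12, Mrps15, Mrps18b, Mrps27 and Mrps31), and the median of all members was −0.17. Mrpl2, the counterpart of bacterial L2 in the core, had 24.4, 45.1 and 48.6 CPM in sham and 18.9, 26.5 and 29.0 CPM in MI (−0.68, SE 0.16, adjusted p = 0.00886), with only sham replicate 5 inside the MI range. Mrpl38 had −0.67 (SE 0.16, adjusted p = 0.00959). Mrps12, a protein of the decoding centre, had 31.8, 36.2 and 42.5 CPM in sham and 18.7, 25.4 and 31.4 CPM in MI, the only member without overlap here, beside 4.42% of all genes whose MI libraries all lay below sham (−0.52, SE 0.12, adjusted p = 0.00862). Mrpl3 had 108, 163 and 183 CPM in sham and 85.7, 106 and 129 CPM in MI (−0.58, SE 0.13, adjusted p = 0.00651). The 2 that rose were Mrpl33, from 1.23, 3.35 and 4.32 CPM to 3.65, 5.79 and 6.59 CPM (+0.81, SE 0.27, adjusted p = 0.0408), and Mrpl52, a subunit found only in mitochondria, from 53.3, 56.2 and 61.5 CPM to 60.1, 67.4 and 73.4 CPM (+0.22, SE 0.07, adjusted p = 0.0402). Both rises were called in only 4 of the 12 fits that left out 1 library. The count of falls depended on single libraries and on the model. It was 37, with 2 rises, without sham replicate 5, beside 22.8% and 23.7% of all genes. The count was 8 of 73 without sham replicate 3, beside 10.3% of all genes that fell. It was also 8 without MI replicate 5, beside 9.77% of all genes. With all 9 groups in a single fit 2 members fell, beside 8.83% of all genes. With library size in place of TMM scaling, 6 members fell and 5 rose, beside 1189 and 2597 of all 15294 genes.

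With the cell sheet, 2 of 73 remote zone members rose and 1 fell relative to MI, beside 10.3% of all 15374 genes that rose and 6.79% that fell. Mrpl3 was at 80.6, 172 and 211 CPM with the cell sheet (+0.63, SE 0.19, adjusted p = 0.0368) and Mrps12 at 22.9, 38.8 and 42.6 CPM (+0.52, SE 0.15, adjusted p = 0.0348). Both had their lowest value in cell sheet replicate 1, below the MI range for Mrpl3 and inside it for Mrps12, while the other 5 animals lay above all MI libraries. Mrpl32 fell from 34.0, 35.8 and 44.4 CPM to 18.8, 27.9 and 33.9 CPM without overlap (−0.45, SE 0.14, adjusted p = 0.0431), the only member so separated, beside 1.93% of all genes. These calls were unstable, being kept in 2, 3 and 2 of 12 fits that left out 1 library. Without cell sheet replicate 1, 21 members rose and 1 fell, beside 20.8% of all genes in each direction. Without cell sheet replicate 6 none rose and 4 fell, beside 6.46% of all genes that rose and 4.50% that fell. Of 12 cardiomyocyte markers 6 had fallen in MI relative to sham in this zone and 3 rose with the cell sheet relative to MI, or 11 and 6 without sham replicate 5 and cell sheet replicate 1. Of the other markers, 7 of 8 for fibroblasts, 1 of 8 for macrophages, 3 of 3 for neutrophils and 2 of 5 for proliferation rose in MI, and 1 of 8, 2 of 8, 2 of 4 and 0 of 5 fell with the cell sheet relative to MI. Without sham replicate 5 these rises became 7 of 8, 8 of 8, 4 of 4 and 5 of 5, and without cell sheet replicate 1 all markers of these 4 lists fell. The part of these markers in the members' values was not tested. Relative to sham, no member passed with the cell sheet (median −0.08, or 0.03 without cell sheet replicate 1, lowest adjusted p 0.476, 2 members with an unadjusted p under 0.05), where edgeR called 1 of 15157 genes (0.0066% higher and 0% lower) and DESeq2 called none of the members and 173 of 27510 genes.

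**Figure D4:**
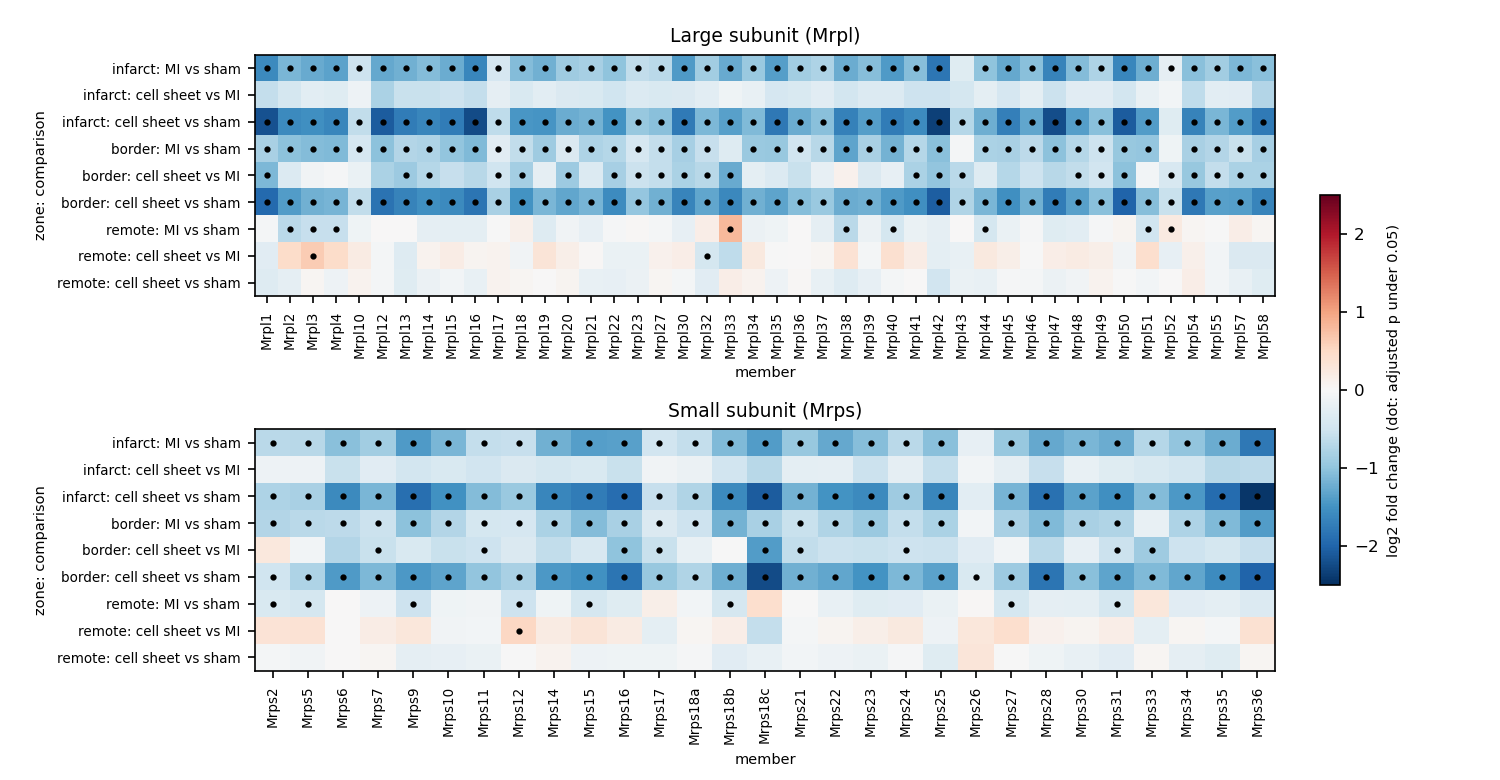
Log2 fold change of each of the 73 tested members (columns) in the 9 comparisons within a zone (rows), with the large and the small subunit in separate panels. A dot marks an adjusted p under 0.05. In the comparisons with sham of the infarct and border zones almost all members lie below 0.

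The effect of MI on the members was set against zone in a fit with the animal as a block. It was lower in the infarct than in the remote zone for 65 of 73 members, beside 15.3% of all 16445 genes, with a median difference of −0.93. The largest differences were those of Mrpl33 (−2.14, SE 0.39, adjusted p = 0.00223) and Mrps18c (−1.99, SE 0.25, adjusted p = 0.000561). Mrps12 was the member with the smallest difference (−0.05, SE 0.21, adjusted p = 0.888), with a log2 fold change of −0.58 in the infarct and −0.52 in the remote zone. Mrpl2, Mrpl10, Mrpl38, Mrpl43, Mrps2, Mrps5 and Mrps26 were the others that did not pass. No member passed edgeR's test for infarct against border zone (0% of genes, median difference −0.30) or for border against remote zone (0% of genes, lowest adjusted p 0.0636, median difference −0.61). An unadjusted p under 0.05 was found for 21 of 73 members and 1430 of 16766 genes for infarct against border. For border against remote it was found for 66 members and 3995 of 16475 genes. For the effect of the cell sheet relative to MI, no member and no gene passed between zones (0% in each pair). The members with an unadjusted p under 0.05 were 7 for infarct against border, beside 2012 of 17275 genes, and 28 for infarct against remote, beside 4190 of 16902 genes. They were 40 for border against remote, beside 3430 of 16784 genes, with a lowest adjusted p of 0.0971. Without cell sheet replicate 1, the interaction was called for 4 members and 2011 genes between infarct and remote and for 3 members and 216 genes between border and remote.

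The large and the small subunit had like medians in the infarct and border zones after MI and differed more in the remote zone. In MI relative to sham, their medians were −1.08 and −1.05 for infarct, −0.79 and −0.76 for border and −0.10 and −0.24 for remote tissue. The difference between the mean log2 CPM of the large and of the small subunit members was taken in each library, where only its shift between groups is read and not its size. In the infarct zone it was 0.034 to 0.12 in sham, −0.026 to 0.0040 in MI and −0.077 to 0.020 with the cell sheet, so that every sham library lay above every other. Border zone values were 0.00085 to 0.077 in sham, −0.034 to 0.051 in MI and −0.10 to −0.015 with the cell sheet, with the cell sheet below sham throughout. Remote zone values were −0.088 to −0.0046 in sham, −0.025 to 0.12 in MI and −0.074 to −0.0097 with the cell sheet, and MI was highest by its median.

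With Mrps30 and Mrps18a counted to the large subunit, where structures place them, and Mrps36 left out, the infarct zone difference was 0.086 to 0.16 in sham, −0.015 to 0.068 in MI and −0.025 to 0.084 with the cell sheet, still without overlap between sham and the others.

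Other genes of mitochondrial translation were counted by list. In the infarct zone of MI relative to sham, 18 of 23 assembly factors fell (Fastkd2 −1.27 and Mtg1 −1.24 on the log2 scale) and 1 rose, Mpv17l2 (+0.61). Of 5 mitoribosome subunits with other symbols, 4 fell, among them Chchd1 (−1.11) and Gadd45gip1 (−0.68), while Ptcd3 rose (+1.22, SE 0.39, adjusted p = 0.0213). Of 13 translation factors 11 fell, led by the initiation factor Mtif2 (−1.61) and the release factor Mtrf1 (−1.45). Of 16 mitochondrial tRNA synthetases 14 fell, led by Nars2 (−1.20) and Yars2 (−1.17), and of 17 genes of mitochondrial transcription and its coactivators 13 fell, led by Ppargc1a (−2.05) and Ppargc1b (−1.91). All 72 tested nuclear respiratory chain genes fell, with a median of −1.66, larger than that of the members, and Cox8b (−2.64) was the most reduced. Cytosolic ribosomal proteins had 23 rises and 4 falls among 70, with a median of +0.12.

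With the cell sheet relative to MI in the border zone, the lists gave different counts, and the difference between lists was not tested. Of 70 cytosolic ribosomal proteins, 63 fell (median −0.79), led by Rps27a (−1.25) and Rps20 (−1.17), as did 16 of 72 respiratory chain genes (median −0.74), led by Cox7b (−1.55) and Ndufa5 (−1.51). Of the mitochondrial tRNA synthetases none of 16 fell and 1 rose (Iars2, +0.58), and of 13 translation factors 1 fell (Mtrf1l, −0.31). Of the assembly factors 5 of 23 fell, among them Malsu1 (−0.74) and Mterf4 (−0.56), and 1 rose, Dhx30 (+0.31). Of the 5 subunits with other symbols 3 fell, among them Chchd1 (−1.12) and Gadd45gip1 (−0.78). Among the genes of mitochondrial transcription 4 of 17 fell, including the RNA-binding protein Slirp (−1.41) and the single-stranded DNA-binding protein Ssbp1 (−0.90), and 1 rose, Yy1 (+0.28). Without cell sheet replicate 1, 65 cytosolic ribosomal proteins, 13 respiratory chain genes, 2 assembly factors and none of the translation factors fell, while 3 synthetases and 1 translation factor rose. Transcript length and RNA integrity were not analysed here.

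**Figure D5:**
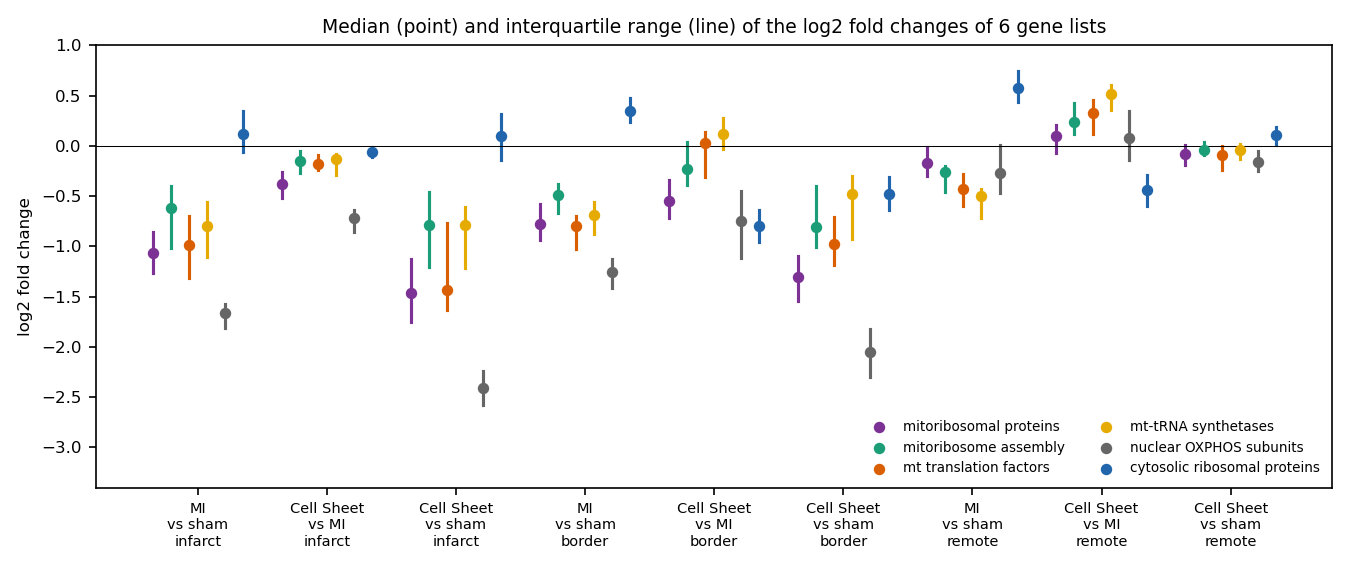
Median and interquartile range of the log2 fold changes of the members and of other gene lists in the 3 zones. The comparisons are MI relative to sham, cell sheet relative to MI and cell sheet relative to sham. For the cell sheet in the border zone, the members (−0.55) lie with the respiratory chain (−0.74) and the cytosolic ribosome (−0.79) below 0, while the tRNA synthetases (0.12) do not.

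In the remote zone of MI relative to sham, 11 of 16 synthetases fell (Lars2 −0.84 and Iars2 −0.82), as did 7 of 13 translation factors (Taco1 −0.74 and the elongation factor Tufm −0.70), 7 of 23 assembly factors and 19 of 72 respiratory chain genes. The RNA-stability factor Lrpprc (−0.92) and the coactivator Ppargc1b (−1.23) fell while Slirp, the partner of Lrpprc, rose (+0.75). Of 70 cytosolic ribosomal proteins 61 rose (median +0.58). Without sham replicate 5, 13 synthetases, 10 translation factors, 15 assembly factors and 42 respiratory chain genes fell and 69 cytosolic ribosomal proteins rose. With the cell sheet relative to MI, Lars2 (+0.90), Lrpprc (+0.93) and Ppargc1b (+1.28) rose and Slirp fell (−1.0), 7 of 16 synthetases rose and 28 of 70 cytosolic ribosomal proteins fell. Without cell sheet replicate 1, 13 synthetases, 9 translation factors, 10 assembly factors and 26 respiratory chain genes rose and 37 cytosolic ribosomal proteins fell. Both comparisons use the MI libraries, from which values of opposite sign can follow. The messenger RNAs that mitochondrial DNA encodes, which are what the mitoribosome translates, were not analysed here.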

How the data were processed

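RNA of 54 left ventricular samples was sequenced from polyadenylated libraries. The authors used STAR for trimming and for alignment to the rat assembly mRatBN7.2, counted reads by gene and deposited these raw, unscaled counts as 1 table for each library. Neither the counting program nor its use of strand is given in the sources used here. The 5 summary lines of each table name no gene, held 17.0% to 42.8% of the counts and entered neither the library sizes nor the tests. Reads that fell on more than 1 gene, 2.08% to 2.88%, are among them.

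Groups were taken from the deposited labels. The software was DESeq2 1.42.0, limma 3.58.1 and edgeR 4.0.16, run under R 4.3.3. The counts of all genes were tested with edgeR's quasi-likelihood F test (TMM factors, default filterByExpr, Benjamini-Hochberg adjustment over all genes tested, threshold 0.05), and each fit held the 12 libraries of 2 groups. The SE is the absolute log2 fold change divided by the square root of F. Differences between zones were tested as interactions with the animal as a block. Levels are TMM-scaled CPM, and log2 CPM has an offset of 0.1. All libraries were large enough that counting error is small beside the spread between animals, except for members of a few CPM such as Mrpl33. In 135 pairs of libraries within groups, the chi-square statistic over genes was 7.97 to 539 times its degrees of freedom. None was therefore deposited more than once within its group, and pairs across groups were not compared.

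The members, the role, pathway and marker lists and the tests were chosen with earlier results of these data known. Members were named by role, by the 3 largest rises and 3 largest falls past the threshold in each comparison and by calls against the median of the members. Mrpl43 and Mrps26 were named after their values were seen. Other genes were named by the 2 largest changes past the threshold in each direction. Promoters came from RefSeq for GRCr8 and were matched by symbol. The tests were first run on simulated data. Alternatives were DESeq2, its size factors in edgeR, library size alone, no filter, at least 10 counts in every library, all 9 groups in a single fit, the replicate number as a block, subunits assigned by structure and leaving out each library in turn. Counting the lower-case symbols as members and leaving out the libraries that stood apart in the lists were added after the data were seen. The DESeq2 tests of the authors, human transcripts and mitochondrially encoded genes were not analysed here.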

Additional observations from a re-analysis of the deposited data

Results flagged for a closer look

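Of 99 groups of 6 libraries tested with Dixon's criterion, covering the members' mean, the subunit difference and the 9 plotted members, 21 held a library far from the other 5. The measures share libraries and the zones share animals, so the groups are not independent and the count is not set against chance. In 15 of the 21 the library apart was sham replicate 5 with the lowest value. Its mean log2 CPM of the members was 5.45, 5.40 and 5.25 in infarct, border and remote tissue. Its Mrpl12 level was 175, 179 and 139 CPM in the 3 zones and its Mrpl3 level was 92.2, 88.5 and 108 CPM. Its Mrps12 level was 27.1 CPM in the infarct and 29.6 CPM in the border zone, and its Mrps18b level 39.0 and 45.7 CPM. Its Mrps26 level of 39.4 CPM in the infarct zone and its Mrpl42 level of 59.0 CPM in the border zone also stood apart. The macrophage score of this animal was the highest among the sham libraries in all 3 zones, and the part of such cells in its member levels was not tested.

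MI replicate 1 stood high in the infarct zone with 301 CPM of Mrpl12 and 76.4 CPM of Mrps18c. For Mrpl33 in the border zone, MI replicate 5 stood high at 6.41 CPM and cell sheet replicate 4 at 2.88 CPM. Cell sheet replicate 1 stood low in the remote zone at 80.6 CPM of Mrpl3 and 22.9 CPM of Mrps12. The interaction of MI with zone was called for 65 of 73 members between the infarct and remote zones, all with the lower fold change in the infarct zone.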

How the results depend on the processing

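The members' medians in the infarct and border zones stayed below 0 under every alternative run. The counts called relative to sham in these zones stayed within 1.5 times of those reported, as did the border zone count of cell sheet against MI apart from the block. With library size alone in place of TMM factors, the median over all genes moved to at most 0.28 (cell sheet against sham, infarct zone), the members' medians for MI against sham became −0.81 (66 called) in the infarct and −0.59 (59 called) in the border zone, and 67.1% of all calls were rises in the infarct zone against 45.5% with TMM. The shares of all genes called for MI against sham with library size alone were 52.8% in the infarct and 41.9% in the border zone.

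In the remote zone, the count for MI against sham went from 17 to 3 with all 9 groups in a single fit, to 11 with library size alone and to 11 without a filter. The share of all genes called went from 25.8% to 20.2%, 24.8% and 11.6% in these fits. The remote count for cell sheet against MI went from 3 to 1 in the single fit, and the share of all genes from 17.1% to 14.6%. With the replicate number as a block, 13 in place of 32 members were called for cell sheet against MI in the border zone. The share of all genes there was 7.46% in place of 18.0%. In the remote zone 0 in place of 3 members were called for that comparison, beside 2 of all 15374 genes in place of 2623. For MI against sham in the border zone the block gave 47 in place of 68 members, beside 26.8% of all genes in place of 41.7%. At most 2 of 6 same-numbered pairs correlated above 0.1 in any comparison, and at most 2 libraries correlated best with their own number. Same-numbered correlations had their widest range, −0.63 to 0.51, for cell sheet against MI in the infarct zone. For that comparison they were −0.47 to 0.29 in the border and −0.35 to 0.32 in the remote zone. Whether the numbers pair animals across treatments was not tested beyond these correlations. Without the animal as a block, the infarct against remote interaction of MI gave 37 in place of 65 members, beside 1431 of all 16445 genes in place of 4748. The cause of these shifts was not tested.

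Leaving out 1 library gave 69 to 72, 0 to 0 and 71 to 73 members in the infarct zone for MI against sham, cell sheet against MI and cell sheet against sham, 62 to 68, 25 to 39 and 71 to 73 in the border zone and 8 to 39, 0 to 22 and 0 to 0 in the remote zone. The share of all genes called moved as well. In the same order it was 42.2% to 64.8%, 0% to 0% and 50.3% to 70.0% in infarct tissue. It was 31.7% to 60.8%, 11.8% to 18.8% and 35.9% to 61.6% in border tissue, and 17.8% to 46.5%, 7.04% to 41.6% and 0% to 0.111% in remote tissue. The remote count for MI against sham moved by over 1.5 times without sham replicates 1 (11), 2 (10), 3 (8), 4 (11) or 5 (39) and without MI replicates 4 (11) or 5 (9). In these fits the share of all genes called was 46.5% without sham replicate 5 and 17.8% to 20.4% in the others, against 25.8% with every library. The remote count for cell sheet against MI was 0 without any 1 of MI replicates 1, 3, 4 and 5 and cell sheet replicates 2 to 5. The 22 came without cell sheet replicate 1, beside 41.6% of all genes called. Leaving out that animal also gave 4 members and 2011 genes for the infarct against remote interaction of the cell sheet. For border against remote it gave 3 members and 216 genes. The difference of the large minus the small subunit medians ranged in the same order from −0.074 to −0.0089, −0.017 to 0.041 and −0.014 to 0.068, then from −0.064 to −0.0057, −0.12 to −0.045 and −0.088 to −0.032, and in the remote zone from 0.095 to 0.14, −0.080 to −0.0066 and 0.0041 to 0.048. For cell sheet against sham it was 0.03 in the infarct zone and 0.075 with subunits assigned by structure, and in the border zone −0.030, against −0.12 with DESeq2, −0.12 without a filter and −0.000754 by structure. Over all refits of the named single-gene calls, 635 stayed on their side of the threshold, 67 lost it and 1 gained it. Counting mrpl9, mrpl11 and mrpl24 gave 76 tested members, of which 70 fell for MI and 33 for cell sheet against MI in the border zone. A comparison by gene length was not run, as it needs transcript lengths of the build used. Of the members below a few CPM, small changes were not detectable at this depth.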
